A study of Mus musculus with 28 samples.

Results

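The core autophagy genes described here are Atg5, Atg7, Atg12, Atg16l1, Becn1, Ulk1, Ulk2, Map1lc3a, Map1lc3b and Rb1cc1. They were taken by name from the deposited table of read counts, where they make up 10 of 25900 gene identifiers, and all 10 were found and passed the filter on low counts that left 16110 genes. The counts come from polyA RNA of frontal cortex of C57BL/6 mice at an age of 20 months. The 3 genotypes compared were 8 libraries from wild-type mice (+/+, WT), 10 from mice with 1 knock-in allele of TDP-43 Q331K (Q331K/+, HET) and 10 from mice with both alleles changed (Q331K/Q331K, HOM). TDP-43 is an RNA-binding protein encoded by Tardbp, Q331K is a substitution found in amyotrophic lateral sclerosis, and the knock-in places it in the endogenous gene, so that every cell type carries it. Sex, litter and batch are not in the labels used here, nor is it stated that every library stands for a different animal. If some do not, the p-values measure a spread between libraries that is partly technical.

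Macroautophagy encloses cytoplasm in a double membrane, the autophagosome, and delivers it to the lysosome. The ULK kinase complex starts the process, a lipid kinase complex built around beclin 1 marks the membrane, and a ubiquitin-like conjugation system attaches proteins of the ATG8 family (LC3 and GABARAP) to the lipid phosphatidylethanolamine on it. Neurons depend on the pathway for the turnover of protein aggregates and organelles, and loss of Atg5 or Atg7 in the mouse nervous system is known to cause neurodegeneration.

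Library totals, in units of 1e6 counted reads (M), ran from 30.5 to 74.9 M with a median of 53.5 M, and HOM 2 at 30.5 M and HOM 1 at 32.8 M were the shallowest. Every member was well covered: the smallest raw count was 584 reads, for Atg5 in a HOM library. Cortical markers were present in every library, with excitatory neuron markers summing to between 5900 and 7070 CPM (counts per M, after scaling by TMM, a method that evens out library composition), while 5 hepatocyte markers summed to at most 1.22 CPM in any library, and 3 of them were under 0.1 CPM on average. The pieces were not uniform: 6 markers of striatal neurons summed to 136 to 511 CPM in WT, 148 to 260 in HET and 145 to 380 in HOM. The source of this spread was not tested. In bulk tissue, fewer cells of a type and less RNA per cell cannot be told apart.

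None of the 10 core genes changed between genotypes by the test used, edgeR's quasi-likelihood test with Benjamini-Hochberg adjustment over all 16110 genes and a threshold of 0.05. Between HOM and WT the count of members called was 0 of 10, where 7.61% of all genes tested were called. Between HET and WT it was 0 of 10 against 0% of all genes, where 1547 genes had an unadjusted p under 0.05 and DESeq2 called 12 and limma voom 14. Between HOM and HET it was 0 of 10 against 0.0372% (0.0124% higher and 0.0248% lower). A slope per Q331K allele, fitted over all 28 libraries, called 0 of 10 members where 7.78% of all genes were called (3.99% with a rising and 3.79% with a falling level).

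The estimates were small and their intervals narrow. In HOM against WT the 95% intervals of the 10 members lay between -10.1% and 8.6% of the WT level, in HET against WT between -6.9% and 8.5%, and in HOM against HET between -8.4% and 5.8%. The members were split evenly around no difference, with 5 estimates above 0 and 5 below 0 in each comparison. Their median log2 difference between HOM and WT was 0, against 0.01 for all genes tested, and the median size of the difference without its sign was 0.034 for members and 0.065 for all genes. With no adjustment, 1 member (Atg7) had p under 0.05 in HOM against WT, as did 24.6% of all genes, and 1 (Atg7) in the slope, while the other comparisons gave 0. The same 0 of 10 was called by DESeq2 and by limma voom in all 4 comparisons. Across 1200 member values from other tools, scalings, filters, sample choices and single omitted libraries, 0 passed the threshold, and the lowest adjusted p was 0.0533 (Atg7, slope, limma voom).

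**Figure D1:**
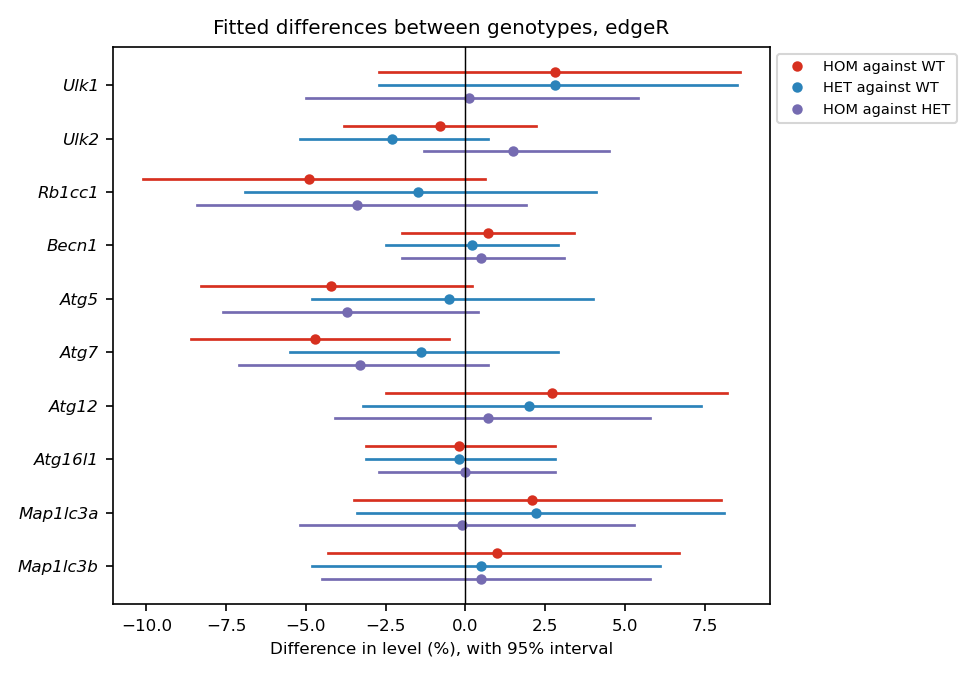
Differences between genotypes for the 10 core genes in percent of the second genotype named, with points for the edgeR estimate and bars for the 95% interval. Every interval lies between -10.1% and 8.6%, and only that of Atg7 in HOM against WT leaves out 0.

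The initiation complex is represented by Ulk1 and Ulk2, the kinases that receive signals from mTOR and AMPK, and by Rb1cc1, which encodes FIP200, the large scaffold that holds the complex together. Ulk1 (GRCm38 chr5:110784488-110810097, minus strand) had a level of 72.1, 79.2 and 85.7 CPM in WT, as lowest, median and highest library, 76.4, 80.8 and 88.6 CPM in HET, and 77.5, 80.6 and 96.9 CPM in HOM. The groups overlapped, with 2 HET libraries and 1 HOM library above the highest WT library and none below the lowest. The fitted HOM against WT log2 difference was 0.04 (SE 0.04, adjusted p = 0.552, edgeR), or 2.8% with an interval from -2.7% to 8.6%.

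Ulk2 (chr11:61775649-61855073, minus strand) had a level of 134, 136 and 141 CPM in WT, 128, 133 and 140 CPM in HET, and 131, 135 and 142 CPM in HOM. In 6 of 10 HET libraries Ulk2 was below the lowest WT library, while the HOM libraries again covered the WT range. Its HET against WT log2 difference was -0.03 (SE 0.02, edgeR p = 0.126, adjusted p = 0.607), or -2.3% with an interval from -5.2% to 0.7%. This was the smallest adjusted p of any member in that comparison.

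Rb1cc1 (chr1:6206197-6276648, plus strand) had the widest spread of the members within genotypes over all 28 libraries (SD of log2 CPM 0.087). Its level was 119, 127 and 133 CPM in WT, 118, 124 and 133 CPM in HET, and 105, 121 and 135 CPM in HOM. In 4 of 10 HOM libraries it was below the lowest WT library, in 1 it was above the highest, and the groups otherwise overlapped. The HOM against WT log2 difference was -0.07 (SE 0.04, edgeR p = 0.0785, adjusted p = 0.262), or -4.9% with an interval from -10.1% to 0.6%. The lowest values, 105 and 107 CPM, were in HOM 2 and HOM 1, the shallowest libraries. Whether depth has a part in this was not tested. With these 2 libraries left out, the log2 difference went from -0.072 to -0.032 (SE 0.035, adjusted p = 0.632, edgeR). The SD within genotypes was then 0.071, below that of Atg12 (0.078). Of the exons of Rb1cc1, 558 bases are shared with the antisense gene 4732440D04Rik, which was counted at 0.597 CPM on average.

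The kinases Ulk1 and Ulk2 are paralogs, so it matters whether reads could be shared between them. Their coding sequences were identical at 63.1% of 3001 aligned bases, and no run of 20 bases or more was common to both. The longest shared run, 17 bases, is printed in capitals below within a coding stretch of 37 bases that lies in a single exon of each gene (Ulk1 chr5:110798882-110798918 and Ulk2 chr11:61840110-61840146, both on the minus strand of GRCm38 and read 5′ to 3′ on that strand).
Ulk1: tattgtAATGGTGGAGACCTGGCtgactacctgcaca
Ulk2: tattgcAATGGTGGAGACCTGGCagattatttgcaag
Outside the capitals the letters differ at several places even in this short window. Only coding bases were compared, 3153 of the 5213 bases of the principal Ulk1 transcript and 3111 of 5743 for Ulk2. Sharing of reads in the other parts was not tested. The ratio of Ulk1 to Ulk2 reads, which does not depend on scaling between libraries, was 0.586 ± 0.035 in WT (SD, n = 8), 0.618 ± 0.042 in HET (SD, n = 10) and 0.609 ± 0.047 in HOM (SD, n = 10). The largest difference in mean log2 ratio, 0.07 between HET and WT, had p = 0.115 in a two-sided exact permutation test and 0.603 after adjustment over the 6 ratio tests.

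Becn1 (chr11:101285952-101302286, minus strand), which encodes the beclin 1 scaffold of the class III phosphatidylinositol 3-kinase complex, was the steadiest member. Its level was 115, 117 and 118 CPM in WT, 113, 117 and 120 CPM in HET, and 113, 118 and 123 CPM in HOM. The libraries of the 3 genotypes sat within the same narrow band, although 4 HOM libraries were above the highest WT library and 2 below the lowest. The fitted HOM against WT difference was 0.7% with an interval from -2% to 3.4% (adjusted p = 0.794, edgeR). Within genotypes the SD of log2 CPM was 0.03, and only 8 of 10149 genes with a mean of at least 10 CPM (0.0788%) varied less. Among 3241 genes within 2-fold of its level, 3 varied less. A stretch of 3104 bases, 43.9% of the annotated exon sequence of Becn1, is shared with Cntd1 on the other strand. The strand setting of the counting is not given in the sources used here, so reads of that stretch cannot be assigned with certainty, and Cntd1 was counted at 0.995 CPM.

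The conjugation system is represented by 4 members. Atg7 encodes the E1-like enzyme that activates both ATG12 and the ATG8 proteins, Atg12 and Atg5 encode the partners joined in a covalent conjugate, and Atg16l1 encodes the protein that binds this conjugate and directs it to the membrane. Atg7 (chr6:114643097-114860614, plus strand) had the smallest p of all members. Its level was 21.1, 21.9 and 22.9 CPM in WT, 20.5, 21.5 and 23.6 CPM in HET, and 19.6, 21 and 22.8 CPM in HOM. In 7 of 10 HOM libraries it was below the lowest WT library and in 9 of 10 below the WT mean. The HOM range reached almost to the top of the WT range through the shallowest library, HOM 2, at 22.8 CPM. The next HOM value was 21.5 CPM, in HOM 1. The HOM against WT log2 difference was -0.07 (SE 0.03, edgeR p = 0.0292, adjusted p = 0.152), or -4.7% with an interval from -8.6% to -0.5%. With HOM 1 and HOM 2 left out it was -0.086 (SE 0.030, adjusted p = 0.0777, edgeR). Per Q331K allele the log2 slope was -0.03 (SE 0.01, adjusted p = 0.139, edgeR). Across the other settings the adjusted p of the HOM against WT difference was at lowest 0.0556, from limma voom.

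Atg5 (chr10:44268358-44364291, plus strand) had an HOM against WT estimate of similar size to that of Atg7. Its level was 20.2, 21.6 and 22.6 CPM in WT, 20.7, 21.4 and 22.8 CPM in HET, and 19.1, 20.6 and 22.9 CPM in HOM. The HOM group contained both the lowest and the highest of the 28 libraries, 3 HOM libraries were below the lowest WT library, and 9 were below the WT mean. The HOM against WT log2 difference was -0.06 (SE 0.03, edgeR p = 0.0589, adjusted p = 0.223), or -4.2% with an interval from -8.3% to 0.2%. In the comparison of HOM with HET, Atg5 had the smallest adjusted p of the members, 0.635, with an estimate of -3.7%.

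Atg12 and Atg16l1, the other members of the conjugation system, had no estimate in a common direction. Atg12 averaged 61.4 ± 3.44 CPM in WT (SD, n = 8), 62.6 ± 3.57 in HET (SD, n = 10) and 63.1 ± 3.19 in HOM (SD, n = 10), and the HOM against WT difference was 2.7% with an interval from -2.5% to 8.2% (adjusted p = 0.543, edgeR). Atg16l1 (chr1:87755870-87792428, plus strand) averaged 79.3 ± 2.24 CPM in WT (SD, n = 8), 79.1 ± 1.45 in HET (SD, n = 10) and 79.1 ± 2.08 in HOM (SD, n = 10). Its HOM against WT difference was -0.2% with an interval from -3.1% to 2.8% (adjusted p = 0.948, edgeR), the estimate closest to 0 of all members. Like Becn1, Atg16l1 was very even between libraries: its SD of log2 CPM within genotypes was 0.035, and 0.473% of the 10149 genes varied less. Ulk2 came next among the members at 0.038, with 0.936% of genes below it. The median gene had 0.08, and the other members ranged from 0.057 (Atg7) to 0.087 (Rb1cc1).

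**Figure D2:**
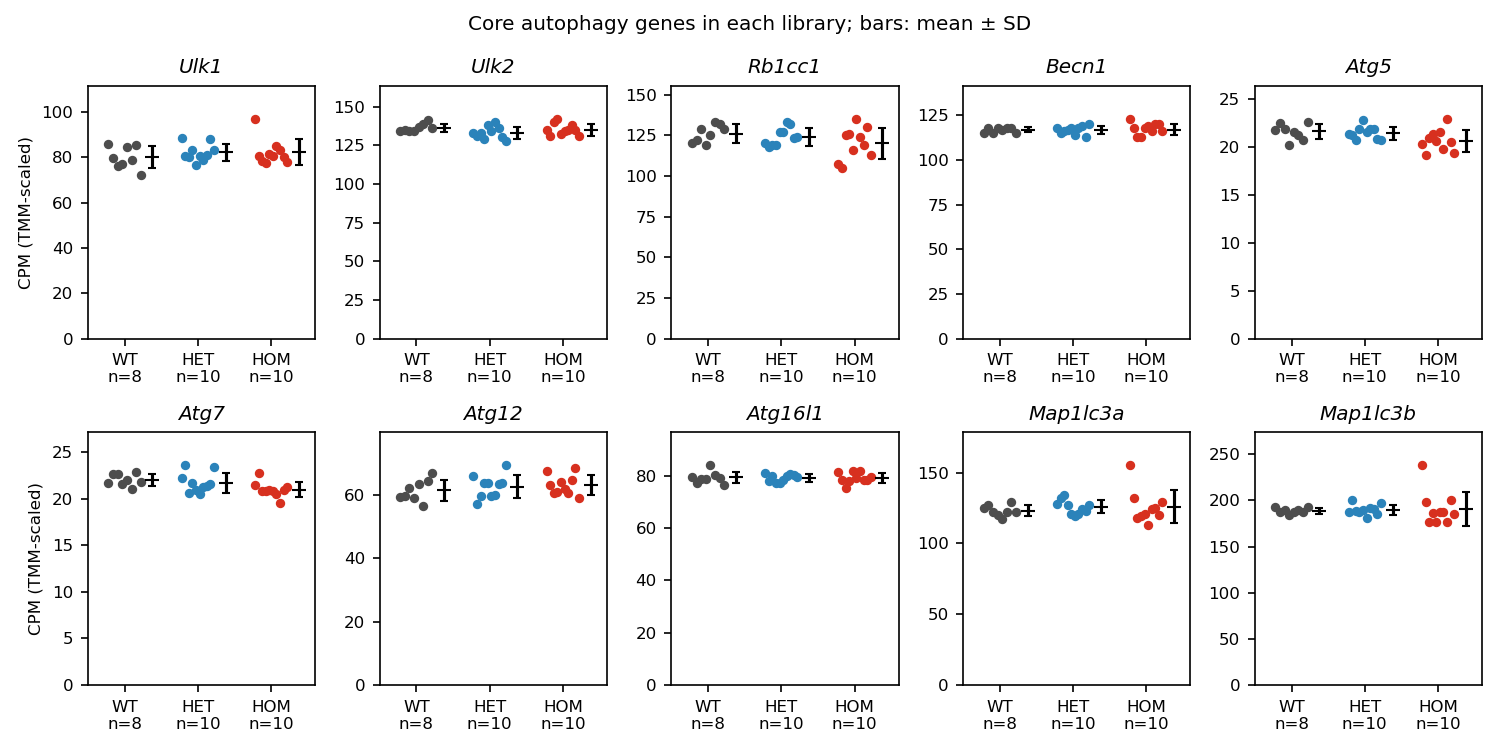
Level of each core gene in CPM (vertical axes start at 0) in every library, by genotype, with the mean and SD beside the points (WT n = 8, HET n = 10, HOM n = 10). The genotypes overlap in all 10 panels, Becn1, Atg16l1 and Ulk2 form the tightest bands, and a single HOM library stands at 155 CPM for Map1lc3a and 238 CPM for Map1lc3b.

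Map1lc3a and Map1lc3b encode LC3A and LC3B, the ubiquitin-like proteins that are coupled to the autophagosome membrane and widely used as its marker. Map1lc3a (chr2:155276297-155278073, plus strand) had a level of 117, 122 and 129 CPM in WT, 119, 125 and 134 CPM in HET, and 113, 123 and 155 CPM in HOM. The HOM libraries lay both above and below the WT range, 3 above and 1 below. The HOM against WT log2 difference was 0.03 (SE 0.04, adjusted p = 0.681, edgeR), or 2.1% with an interval from -3.5% to 8%.

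Map1lc3b (chr8:121590361-121598760, plus strand) had a level of 184, 189 and 193 CPM in WT, 181, 189 and 200 CPM in HET, and 177, 186 and 238 CPM in HOM. The HOM libraries were spread to both sides of a tight WT group, 3 above and 3 below. The HOM against WT difference was 1% with an interval from -4.3% to 6.7% (adjusted p = 0.853, edgeR). The SD in HOM was 18.4 CPM, against 3.11 CPM in WT and 5.28 CPM in HET. Of the exons of Map1lc3b, 58 bases are shared with Zcchc14 on the other strand, a gene counted at 82 CPM.

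HOM 1 set the top of the HOM range for both LC3 genes and for Ulk1. Its values were 155 CPM for Map1lc3a, where the other 9 HOM libraries ran from 113 to 132, 238 CPM for Map1lc3b (177 to 201) and 96.9 CPM for Ulk1 (77.5 to 84.9). Without the shallow libraries HOM 1 and HOM 2, the log2 difference between HOM and WT turned from 0.030 to -0.021 for Map1lc3a (adjusted p = 0.705, edgeR) and from 0.015 to -0.036 for Map1lc3b (adjusted p = 0.389). The within-genotype SD of log2 CPM then went from 0.085 to 0.053 for Map1lc3a and from 0.082 to 0.045 for Map1lc3b.

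The LC3 paralogs are closer in sequence than the ULK paralogs. Their coding sequences were identical at 278 of 363 aligned bases (76.6%), again with no shared run of 20 bases or more. Both stretches below, of 100 bases and aligned without a gap, lie in a single exon (Map1lc3a chr2:155277484-155277583 and Map1lc3b chr8:121596605-121596704, plus strand of GRCm38, 5′ to 3′), and the capitals mark the longest run common to both, 15 bases.
Map1lc3a: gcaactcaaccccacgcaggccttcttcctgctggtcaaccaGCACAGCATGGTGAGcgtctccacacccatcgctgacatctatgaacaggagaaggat
Map1lc3b: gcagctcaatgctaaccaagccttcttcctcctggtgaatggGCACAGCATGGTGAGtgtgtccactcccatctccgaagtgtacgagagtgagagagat
On either side of the capitals the letters differ at many places. Coding bases are 363 of the 1112 bases of the principal Map1lc3a transcript and 375 of 2532 for Map1lc3b, and the other parts were not compared. The ratio of Map1lc3a to Map1lc3b reads was 0.65 ± 0.021 in WT (SD, n = 8), 0.661 ± 0.022 in HET (SD, n = 10) and 0.658 ± 0.036 in HOM (SD, n = 10). The smallest p was 0.301, for HET against WT (two-sided exact permutation test), which became 0.603 after adjustment over the 6 tests.

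**Figure D3:**
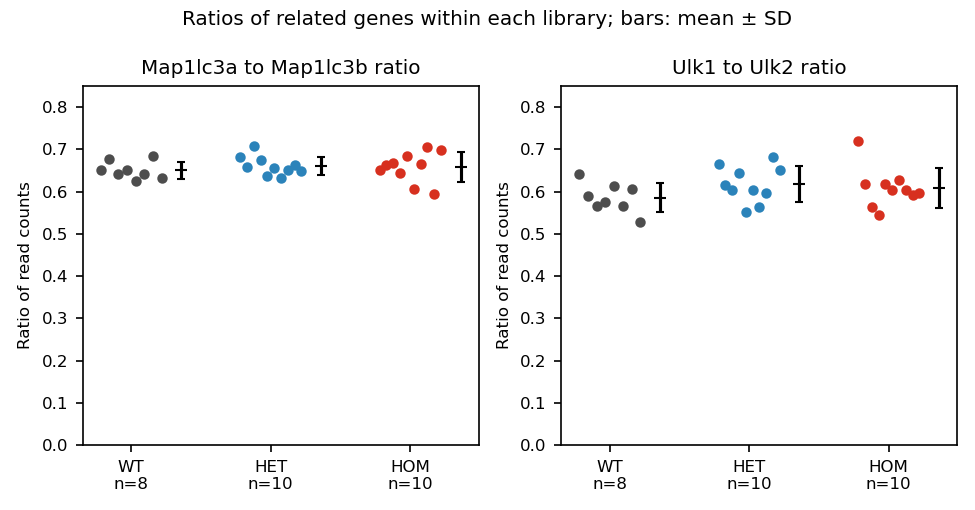
Ratio of read counts of Map1lc3a to Map1lc3b and of Ulk1 to Ulk2 in each library, by genotype, on axes that start at 0, with mean and SD beside the points (WT n = 8, HET n = 10, HOM n = 10). The genotypes overlap in both panels, and the Ulk1 to Ulk2 ratio of 0.72 in HOM 1 is the highest value of its panel.

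Between genes, levels were compared as CPM per kilobase of the principal annotated transcript, averaged over all 28 libraries. Map1lc3a was highest at 112 ± 6.84 (SD, n = 28), followed by Map1lc3b at 75.1 ± 4.43 (SD, n = 28), with no overlap between their libraries. Becn1 (26.8), Atg16l1 (25.3) and Ulk2 (23.5) came next, each overlapping its neighbour over the libraries. Rb1cc1 (16.2), Ulk1 (15.6) and Atg12 (13.1) overlapped in the same way, and Atg5 (9.01) and Atg7 (5.74) were lowest, each clear of its neighbours. The order of these genes depends on the transcript chosen: on the length of all annotated exons merged, Map1lc3a, Map1lc3b and Atg7 held the same ranks. Atg16l1 then went from rank 4 to rank 8 and Atg5 from rank 9 to rank 6. Map1lc3b was at 25.3 on that length, near Ulk2 at 22.5. Per kilobase of principal transcript, the GABARAP branch of the ATG8 family reached 339 for Gabarapl1, 81.8 for Gabarap and 61 for Gabarapl2. The LC3 genes were thus lower per length than Gabarapl1 in every library.

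Members did not move as a block from library to library. After removal of the genotype means from log2 CPM, the median Pearson correlation over the 45 pairs of members was 0.12 (28 libraries, which share scaling and depth), and 26 pairs were above 0. After adjustment over the 45 pairs, 2 passed in a permutation test within genotypes. Map1lc3a and Rb1cc1 ran in opposite directions, with r = -0.7 (permutation p = 0.00013, adjusted p = 0.00585) and rho = -0.64 (permutation p = 0.00074, adjusted p = 0.0166). Without the 2 libraries farthest from the median of Map1lc3a r was -0.59, and without HOM 1 and HOM 2 it was -0.63. Ulk2 and Rb1cc1 ran in the same direction, with r = 0.57 (permutation p = 0.00216, adjusted p = 0.0486) and rho = 0.64 (permutation p = 0.00044, adjusted p = 0.0166), and r was 0.52 without the 2 farthest libraries. Both belong to the initiation complex, but Ulk1 of the same complex had r = -0.37 with Rb1cc1 and -0.2 with Ulk2. Neither of these passed (adjusted p = 0.199 and 0.495, permutation test). Map1lc3a has the shortest principal transcript of the members, 1112 bases, and Rb1cc1 the longest, 7607 bases, while that of Ulk2 has 5743 bases. Whether transcript length has a part in these relations was not tested. The LC3 paralogs had r = 0.73 but rho = 0.43 (permutation p = 0.0102 and 0.0364, adjusted p = 0.114 and 0.164), and r was 0.31 without HOM 1 and HOM 2, so that this value rested on those libraries.

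**Figure D4:**
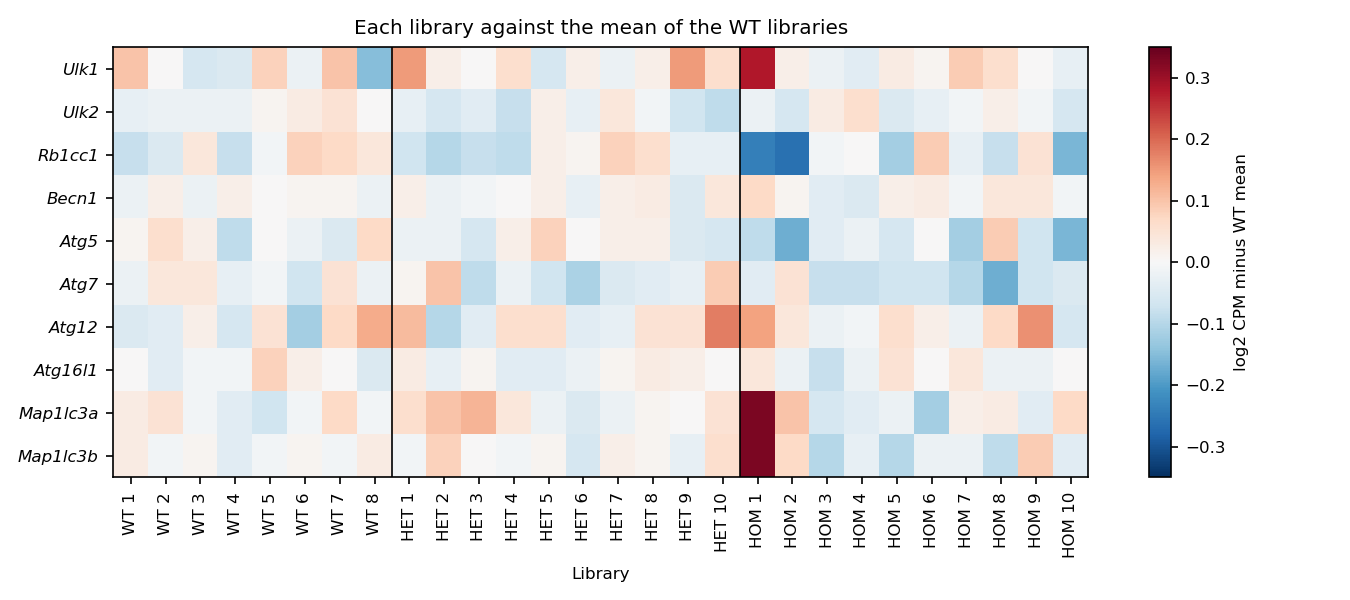
Log2 CPM of each core gene minus the mean of the WT libraries, in each of the 28 libraries ordered by genotype and number, with red for higher and blue for lower. HOM 1 is darkest red for Ulk1, Map1lc3a and Map1lc3b, and HOM 1 and HOM 2 are darkest blue for Rb1cc1.

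For each member, the gene whose within-genotype deviations were most alike was sought among 10784 genes of at least 5 CPM. Because each is the highest of that many values, the correlations are a description. Map1lc3a was most alike to Ube2m, which encodes the NEDD8-conjugating enzyme UBC12 (r = 0.94 over 28 libraries, 0.82 without the 2 farthest). Map1lc3b was most alike to Coro2b, of the actin-binding coronin family (r = 0.9, 0.72 without the 2 farthest), and Ulk1 to Bai2, an adhesion G protein-coupled receptor gene (r = 0.89 with and without them). Atg12 went with Tmem50b (r = 0.87), Rb1cc1 with Secisbp2l (r = 0.85), Atg16l1 with the adenylyl cyclase gene Adcy6 (r = 0.82) and Ulk2 with the zinc finger gene Zfp260 (r = 0.76). Without the 2 farthest libraries these were 0.83, 0.77, 0.73 and 0.75. The lowest such maxima were those of Atg5 with Trappc2, a subunit of the TRAPP vesicle tethering complexes (r = 0.74), Becn1 with Ing1 (r = 0.73) and Atg7 with Pars2, a mitochondrial prolyl-tRNA synthetase (r = 0.66). Without the 2 farthest libraries they were 0.66, 0.72 and 0.5. None of these partners is another core autophagy gene.

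The wider pathway was read from 69 further autophagy genes grouped by role. Their list was drawn up with earlier results of these data known, so the shares below are a description. Between HOM and WT, 7 of 69 (10.1%) fell, 0 rose and 62 did not pass the test, where 3.71% of all genes tested were called lower and 3.9% higher. Their median log2 difference was -0.02, against 0.01 for all genes. In HET against WT and in HOM against HET, 0 of 69 passed, with lowest adjusted p of 0.438 and 0.44. The genes that fell were single members of 5 groups and a pair in the class III kinase group. Without the library WT 6, the number that fell was 2 of 69.

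In the class III kinase group, which Becn1 belongs to, 2 of 7 other genes fell. Pik3c3, the catalytic lipid kinase VPS34, went from 44.5 ± 0.963 CPM in WT (SD, n = 8) to 41.6 ± 1.91 in HOM (SD, n = 10), a log2 difference of -0.10 (SE 0.03, adjusted p = 0.0288, edgeR), and all 10 HOM libraries were below the WT mean. Nrbf2, which encodes a partner of that complex, went from 11.1 ± 0.639 to 9.9 ± 0.785 CPM, a log2 difference of -0.17 (SE 0.05, adjusted p = 0.0291). Their neighbours Atg14 (-0.04, adjusted p = 0.391) and Ambra1 (0.03, adjusted p = 0.486) did not pass.

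Of the 7 other genes of conjugation and the ATG12 system, 1 fell. This was Atg4c, a protease that processes ATG8 proteins, at 51.1 ± 2.32 CPM in WT (SD, n = 8) and 47.1 ± 2.78 in HOM (SD, n = 10), a log2 difference of -0.12 (SE 0.04, adjusted p = 0.0404, edgeR). Atg3, the E2-like enzyme that acts after ATG7, had a log2 difference of 0.08 (adjusted p = 0.139) and Atg10, the E2-like enzyme for ATG12, one of -0.10 (adjusted p = 0.191). Among the 3 GABARAP genes, Gabarapl1 fell from 635 ± 20.2 to 601 ± 26.8 CPM, a log2 difference of -0.08 (SE 0.02, adjusted p = 0.0406), while Gabarapl2 (-0.05, adjusted p = 0.162) and Gabarap (0.03, adjusted p = 0.523) did not pass. The remaining genes of the ULK complex, Atg101 and Atg13, had log2 differences of -0.02 each (adjusted p = 0.777 and 0.779).

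Single genes fell in the groups of cargo receptors, of fusion and of upstream regulators. Bnip3, a mitophagy receptor of the outer mitochondrial membrane, went from 115 ± 4.27 CPM in WT (SD, n = 8) to 105 ± 4.8 in HOM (SD, n = 10), a log2 difference of -0.12 (SE 0.03, adjusted p = 0.0136, edgeR), with all 10 HOM libraries below the WT mean. Epg5, which encodes a tether that brings autophagosomes to late endosomes and lysosomes, went from 66.1 ± 1.95 to 62.1 ± 2.4 CPM, a log2 difference of -0.09 (SE 0.03, adjusted p = 0.0361). Zkscan3, known as a transcriptional repressor of autophagy and lysosome genes, went from 74.7 ± 5.2 to 65.3 ± 5.79 CPM, a log2 difference of -0.19 (SE 0.05, adjusted p = 0.021). For each of the 7 genes that fell the HET mean lay between those of WT and HOM. They were picked by their HOM against WT difference, a choice that by itself favors such an order. Of the 69 genes, 0 passed in HET against WT or in HOM against HET.

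The number of calls among the 69 depended on single libraries and on the fit. It was 2 without WT 6, 4 without each of WT 1, WT 2 and WT 7, and 9 without WT 4. With only the genotypes compared in the fit it was 3, and 8 with DESeq2 or limma voom. Without HOM 10 there was also 1 higher gene. Calls over all genes moved too, from 1226 to 595 without WT 6, 1199 without WT 4 and 832 with only the genotypes compared. DESeq2 called 1563 genes and limma voom 1392. Bnip3 passed in all 18 fits with a library left out and in all 9 other settings, and Zkscan3 in 18 of 18 and 7 of 9. Pik3c3 passed in 16 of 18 and 8 of 9, and Nrbf2 in 16 of 18 and 6 of 9. The calls of the other genes were lost more often: Gabarapl1 passed in 11 of 18 and 6 of 9 (highest adjusted p = 0.0819, edgeR with only the groups compared), Epg5 in 9 of 18 and 5 of 9 (0.101 with the replicate number as a block) and Atg4c in 8 of 18 and 5 of 9 (0.107 without HOM 1 and HOM 2). In the same comparison 5 of 8 microglial markers rose, with summed levels of 417 to 491 CPM in WT, 425 to 498 in HET and 465 to 587 in HOM, and none of these markers was at or near 0. Astrocyte markers rose for 2 of 6 (summed 4280 to 5230 CPM in WT, 4290 to 5060 in HET and 4410 to 5130 in HOM), while excitatory neuron markers passed for 0 of 6 (6030 to 6550 CPM in WT, 6210 to 6890 in HET and 5900 to 7070 in HOM). Markers of oligodendrocyte precursors rose for 3 of 4 (99.3 to 114 CPM in WT, 105 to 129 in HET and 114 to 137 in HOM), and endothelial and mural markers for 3 of 6 (233 to 258, 229 to 295 and 246 to 301 CPM). Meningeal fibroblast markers rose for 2 of 6 (30.9 to 47.4, 40.3 to 65 and 36.3 to 94.2 CPM), and of 6 inhibitory neuron markers 1 rose and 2 fell (882 to 1020, 891 to 955 and 818 to 973 CPM). Markers of oligodendrocytes, of striatal neurons and of choroid plexus passed for 0 of 6 each. Over all genes tested, 3.9% were called higher and 3.71% lower. The part of cell composition in the autophagy gene differences was not tested.

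**Figure D5:**
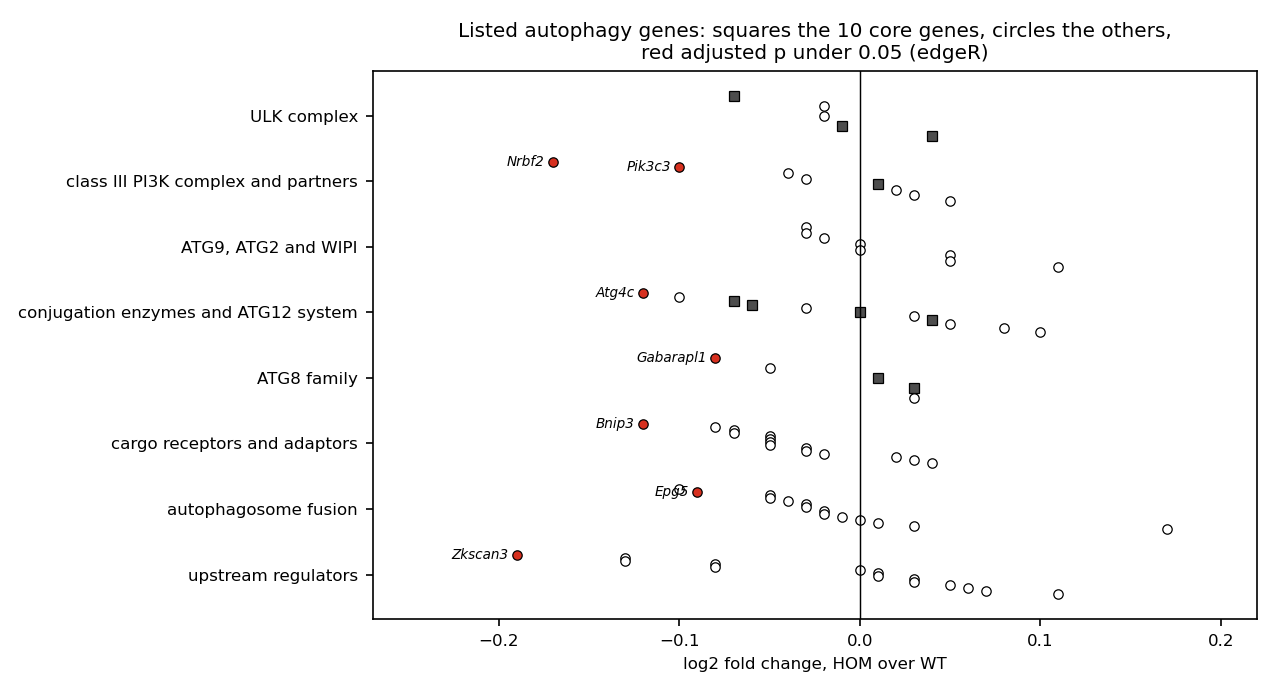
Log2 difference between HOM and WT (horizontal axis) for the 79 listed autophagy genes by functional group, with squares for the 10 core genes, circles for the 69 others, and red with names for adjusted p under 0.05 in edgeR. The 7 red points all lie left of 0, no square is red, and vertical offsets within a group only separate the points.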

How the data were processed

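Frontal cortex polyA RNA was sequenced in 28 libraries. Per the submitters' processing notes, Trim Galore 0.4.3 and HISAT2 2.0.5 were used with GRCm38; how reads were counted, with which strand setting and annotation, is not given in the sources used here. Per the file itself, the authors deposited raw read counts per gene, whole numbers without normalization. Of 25965 table entries, 122 that shared 57 identifiers were summed, giving 25900 genes. Totals of 30.5 to 74.9 M (1e6 reads) and a biological coefficient of variation of 8.46% set the precision. Genotypes came from the titles. No library pair agreed within sampling noise (lowest chi-square per degree of freedom 6.38 over 378 pairs).

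Counts were filtered with filterByExpr, scaled by TMM and tested in edgeR 4.0.16 (R 4.3.3; estimateDisp, robust glmQLFit, two-sided glmQLFTest) in 1 fit of all libraries, with a separate fit for the slope on 0, 1 or 2 alleles, after the code was tested on simulated data. Benjamini-Hochberg adjustment ran over all genes of each comparison. Log2 CPM used a prior count of 2. Read ratios used counts plus 0.5 and two-sided exact permutation over 43758 splits, or 100000 resamples for 10 against 10. Correlations used 100000 permutations within genotypes. Positions, exon overlaps and transcript lengths came from GENCODE vM21 (GRCm38), and coding sequences from its transcripts. Alternatives were DESeq2 1.42.0, its size factors, limma 3.58.1 voom with quality weights, other count filters, the replicate number as a block, a fit of only the genotypes compared, and libraries left out. The text names every member, listed autophagy genes that passed in HOM against WT (up to 12), at most 2 others per group with the smallest p, and the most alike gene per member, leaving out clone-like names. Members, lists and the libraries left out in pairs were chosen with earlier results of these data known.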

Additional observations from a re-analysis of the deposited data

Results flagged for a closer look

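In a check of 36 sets of values (each member and both ratios in each genotype), 4 had a highest library whose gap to the next exceeded Dixon's 95% critical value, and all 4 were HOM 1. Chance alone gives about 1 in 20 sets. Ulk1 in HOM 1 was at 96.9 CPM, where the other HOM libraries ran from 77.5 to 84.9. Map1lc3a in HOM 1 was at 155 CPM, against 113 to 132. Map1lc3b in HOM 1 was at 238 CPM, against 177 to 201. The ratio of Ulk1 to Ulk2 reads in HOM 1 was 0.72, against 0.545 to 0.628. These values come from a single library and are not independent of each other, and HOM 1 was also among the shallowest libraries. The part of depth in them was not tested.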

How the results depend on the processing

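The call of 0 of 10 members held in every setting tried, for all 4 comparisons. Of 1200 member estimates 83 changed sign, none past the threshold. The farthest from 0 was Map1lc3b in HOM against HET without HOM 1 and HOM 2, at -0.043 (SE 0.023, adjusted p = 0.494, edgeR). Counts over all genes moved more. In HOM against WT 1226 genes were called, 737 with the replicate block and 509 without WT 6 and HOM 3. With single libraries left out the count ran from 595 (without WT 6) to 1345, with 725 without WT 2. It was 1563 with DESeq2, 1392 with limma voom and 1261 with a filter of 1 CPM in 8 libraries. With no count filter it was 984, and 832 with only the groups compared. In HET against WT the count of 0 became 12 with DESeq2, 14 with limma voom, 1 with a filter of 1 CPM in 8 libraries, 4 with only the groups compared, 2 without HOM 1 and HOM 2, and 0 to 3 with single libraries left out. In HOM against HET 6 genes became 40 with DESeq2, 42 with limma voom and 3 to 15 with single libraries left out. For the slope 1254 became 832 with only WT and HOM, 821 with the block and 608 without WT 6 and HOM 3. It was 1597 with DESeq2, 1395 with limma voom, and 681 to 1401 with single libraries left out. The cause of these moves was not tested.

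The replicate numbers were not found to pair the libraries: over 26 same-numbered pairs across genotypes the correlation of deviations ran from -0.16 to 0.18 with a median of 0.01, 5 were over 0.1, and 2 of 28 libraries correlated best with their own number. With the number as a block, the count of members called stayed 0 in each comparison, Atg7 in HOM against WT was at -0.076 (adjusted p = 0.108), and 2 of the 69 further autophagy genes fell. Signs that changed under the block were those of Atg5 in HET against WT (0.005) and Ulk1 in HOM against HET (-0.000). Under the block the mean log2 ratio of Map1lc3a to Map1lc3b differed by 0.023 and that of Ulk1 to Ulk2 by 0.060 between HOM and WT (adjusted p = 0.703 each, exact sign-flip test).

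Without HOM 1 and HOM 2, signs changed in HOM against WT for Map1lc3a (-0.021) and Map1lc3b (-0.036), in HOM against HET for Atg12 (-0.002), Becn1 (-0.001), Ulk1 (-0.028) and Map1lc3b (-0.043), and in the slope for Map1lc3a (-0.010) and Map1lc3b (-0.018). With limma voom they changed in HOM against WT for Atg16l1 (0.000), Map1lc3a (-0.011) and Map1lc3b (-0.020), in HET against WT for Atg16l1 (0.003) and Map1lc3b (-0.001), in HOM against HET for Becn1 (-0.001), Ulk1 (-0.012) and Map1lc3b (-0.019), and in the slope for Atg16l1 (0.000), Map1lc3a (-0.005) and Map1lc3b (-0.009). Without WT 6 and HOM 3 they changed for Atg16l1 in HOM against WT (0.006), HOM against HET (0.007) and the slope (0.003), and for Map1lc3a in HOM against HET (0.007). The remaining changes were Becn1 in HET against WT with the 1 CPM filter (-0.001) and Ulk1 in HOM against HET with no count filter (-0.001).

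With single libraries left out, signs changed within these ranges. In HOM against WT, Atg16l1 ran from -0.013 to 0.005, Map1lc3a from -0.01 to 0.046 and Map1lc3b from -0.027 to 0.027, the last 2 turning only without HOM 1. In HET against WT, Atg5 ran from -0.022 to 0.001, Atg16l1 from -0.012 to 0.007, Becn1 from -0.003 to 0.009 and Map1lc3b from -0.003 to 0.014. In HOM against HET, Atg12 ran from -0.006 to 0.027, Atg16l1 from -0.008 to 0.007, Becn1 from -0 to 0.012, Ulk1 from -0.027 to 0.013, Map1lc3a from -0.038 to 0.015 and Map1lc3b from -0.032 to 0.019. In the slope, Atg16l1 ran from -0.007 to 0.002, Map1lc3a from -0.006 to 0.023 and Map1lc3b from -0.014 to 0.013. The HOM against HET difference in the log2 ratio of Map1lc3a to Map1lc3b ran from -0.02 to 0.008. The causes were not tested.

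With 8 to 10 libraries per genotype, the smallest log2 change called in HOM against WT had a size of 0.06. That size is not a limit that holds for every gene: Prkaa2 at -0.13 did not pass (adjusted p = 0.0519, edgeR). The estimates for Atg5, Atg7 and Rb1cc1 were near 0.06 and did not pass either. Differences inside the intervals of all 10 members remain possible. Transcript levels also say nothing of protein amounts or autophagic flux.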

Other observations

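Several autophagy genes next to those that passed had small differences between HOM and WT. Prkaa2, a catalytic subunit of the energy sensor AMPK that phosphorylates ULK1, had 60 ± 3.52 CPM in WT (SD, n = 8) and 54.7 ± 4.26 in HOM (SD, n = 10), a log2 difference of -0.13 (SE 0.04, adjusted p = 0.0519, edgeR), and it passed in the slope per allele (adjusted p = 0.0458), where 8 of the 69 further genes fell and 0 rose. Foxo3, a transcription factor known to activate autophagy genes, had a log2 difference of -0.08 (adjusted p = 0.0954). Among receptors, Bnip3l, the paralog of Bnip3, had -0.07 (adjusted p = 0.115) and Nufip1, a receptor for ribosomes, -0.08 (adjusted p = 0.139). In the fusion group the SNARE gene Vamp8 had 0.17 (adjusted p = 0.128) and Vps33a, of the HOPS tethering complex, -0.05 (adjusted p = 0.185). In the group of ATG9, ATG2 and WIPI genes, 0 of 8 passed, with Atg2a at 0.05 (adjusted p = 0.417) and Atg9b at 0.11 (adjusted p = 0.434).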
